A study of Mus musculus with 12 samples.

Results

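Bdnf encodes brain-derived neurotrophic factor, and it is described here by its transcripts and by the 5-hydroxymethylcytosine (5hmC) around it in the mouse hippocampus after a single restraint. It was chosen by its symbol, as 1 of 23953 genes in both RNA tables, with 11 of 33262 RefSeq transcripts. All 5hmC peaks in the gene body and 50 kb either side were taken, which gave 5 peaks in 4 regions of 74450 regions over the whole series. Male C57BL/6 mice of the stress group (6 animals) were held in a conical tube for 30 min, beginning 2 h after lights on, and were left alone in a clean cage for 1 h before tissue was taken. Control mice (5 animals) were naive and went from the cage to brief isoflurane anaesthesia, which both groups received, when the restraint of the others began. Stress and the later hour of tissue collection therefore cannot be told apart. Their age is postnatal day 28 in the sample tags but 7 weeks in the protocol. Punches of whole hippocampus were pooled from at most 2 mice, which gave 3 stress and 3 control 5hmC libraries. RNA of the same pools was deposited as 1 table per group, in FPKM, a count of RNA fragments scaled by transcript length and library size. FPKM values are given as control, then stress, and genes that average 1 FPKM or more over both tables are called expressed.

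BDNF is secreted by neurons, signals through the receptor kinase TrkB (gene Ntrk2) and is known for its part in synaptic strengthening and memory in the hippocampus. The rodent gene has a series of alternative first exons, numbered with Roman numerals, each with its own start site and each spliced to a shared last exon that holds the protein-coding sequence. Transcripts with different first exons therefore encode the same mature protein, while neuronal activity is known to act most on the start sites of exons I and IV. 5hmC is made from methylated cytosine by the TET enzymes and is abundant in the bodies of genes active in neurons.

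Bdnf spans 52344 bp on the plus strand of chromosome 2, from 109514857 to 109567200 in mm9. Its 11 transcripts start at 9 places, numbered I to IX here in their order along the gene, with 3 nested forms of exon II. Exons I to III lie within the first 2332 bp counted between starts. Exons IV, V, VI and VII start within 1973 bp of each other, 17736 bp after the first start. Exon VIII starts 34683 bp and exon IX 48221 bp after the first start, and exon IX runs without a splice into the last exon. No other gene of the tables lay within 50 kb. The nearest ones were Kif18a, a kinesin gene 333 kb upstream, and Lin7c, a synaptic scaffold gene 164 kb downstream.

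The sequences upstream of 3 first exons are shown because the RNA of exons IV and V was higher in the stress table and because exon IX is the start nearest to a 5hmC peak. They are the 250 bases before each start, from RefSeq on GRCm38.p6, written 5′ to 3′, with each match to TGACG (the core of the cAMP response element, which CREB binds) or to its reverse complement in capitals.
exon IV, chr2:109692186-109692435, plus strand: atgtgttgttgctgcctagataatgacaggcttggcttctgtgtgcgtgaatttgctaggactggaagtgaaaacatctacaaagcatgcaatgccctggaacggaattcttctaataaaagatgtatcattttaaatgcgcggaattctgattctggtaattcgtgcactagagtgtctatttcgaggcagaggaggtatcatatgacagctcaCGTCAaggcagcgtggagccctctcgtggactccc
exon V, chr2:109692777-109693026, plus strand: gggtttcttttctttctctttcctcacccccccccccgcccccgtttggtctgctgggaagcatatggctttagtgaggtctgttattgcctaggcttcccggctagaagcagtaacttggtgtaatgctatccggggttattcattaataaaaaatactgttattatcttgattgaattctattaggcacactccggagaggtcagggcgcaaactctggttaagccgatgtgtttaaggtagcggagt
exon IX, chr2:109722671-109722920, plus strand: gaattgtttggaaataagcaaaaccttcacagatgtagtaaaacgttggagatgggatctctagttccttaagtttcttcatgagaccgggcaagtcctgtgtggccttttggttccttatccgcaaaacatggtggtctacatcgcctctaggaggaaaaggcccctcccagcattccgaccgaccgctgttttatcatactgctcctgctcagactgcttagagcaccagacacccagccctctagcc

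RefSeq windows were available for 7 first exons (I, III, IV, V, VII, VIII and IX), each at the same distance from the first start as in the mm9 tables. None was available for exons II and VI, so the start of exon VI, whose RNA differed most, was not searched. The CREB core was found in 1 of the 7, that of exon IV, 35 bases before the start, and in 17.8% of 32851 mouse promoter windows of the same length. The E-box CACGTG was in none of the 7 (6.02% of all windows), and TGANTCA, bound by AP-1, was in that of exon III (6.75% of all). AGAACA, part of the site bound by the glucocorticoid receptor, was in those of exons I, III and VIII (16.1% of all). These are matches of letters on either strand and do not show that a factor binds. CG dinucleotides, where most cytosine methylation and 5hmC sits, numbered 9 before exons I and IV, 8 before exon V, 7 before exon IX, 13 before exon VII, 4 before exon III and 1 before exon VIII, beside a median of 6 over all windows.

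The RNA comparison asked which Bdnf transcripts differed after restraint. The sum of all Bdnf transcripts was the same in both, at 9.07 and 9.06 FPKM, while the transcripts that made up this sum were not. Exon VI transcripts held 60.4% of the gene's FPKM in the control table but only 10.5% in the stress table. Exon V transcripts held 16.5% and 49.8%, exon II transcripts 7.38% and 19.7%, and exon IV transcripts 6.39% and 14.6%. Each group has 1 table, so no value for RNA has a replicate or a test, and all differences are between these tables rather than between the conditions.

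**Figure D1:**
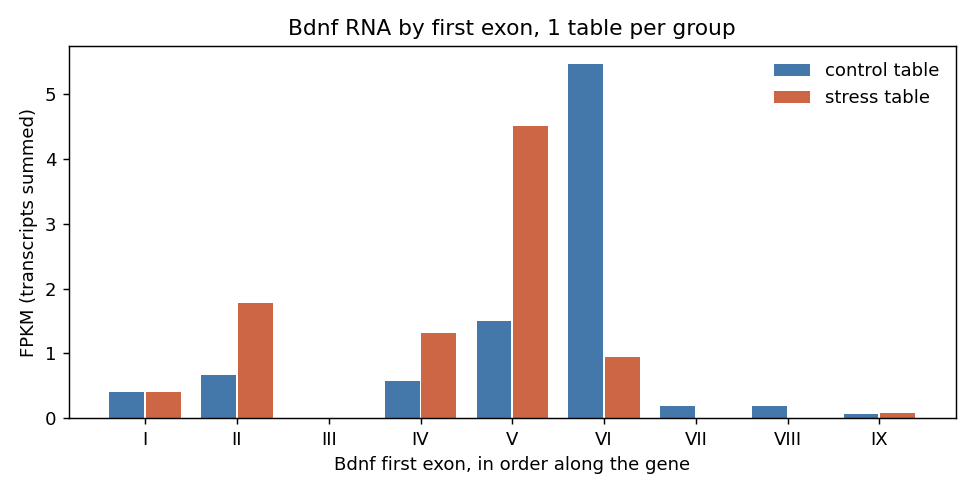
FPKM of Bdnf transcripts (vertical axis) summed by first exon (horizontal axis, in order along the gene) in the control and stress tables; there are no error bars, since each group has 1 table. The control and stress bars are at 5.47 and 0.949 for exon VI, and at 1.50 and 4.51 for exon V.

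In the control table the order of levels was VI (5.47 FPKM), V (1.50), II (0.669), IV (0.579), I (0.40), VII (0.189), VIII (0.189), IX (0.0655) and III (under 0.001). In the stress table it was V (4.51 FPKM), II (1.79), IV (1.32), VI (0.949), I (0.412) and IX (0.0866), with III, VII and VIII all under 0.001. The most abundant transcript thus differed between the tables, from exon VI to exon V. Without replicates the spread of these levels is unknown. The deposited tables give an interval for each transcript around its own FPKM value. That each of the 11 values lay inside its own interval in both tables is therefore no check on its level.

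Exon VI RNA (transcript NM_001048142) had a stress-to-control ratio of 0.173, and in the authors' deposited tables its intervals were 5.11 to 5.86 FPKM in control and 0.810 to 1.09 in stress. Exon V RNA (NM_001285420) had a ratio of 3.00, with deposited intervals of 1.30 to 1.70 and 4.15 to 4.86. Exon IV RNA (NM_001048141), the form best known for its induction by calcium and CREB, had a ratio of 2.28 and deposited intervals of 0.455 to 0.706 and 1.13 to 1.50. For these 3 first exons the deposited intervals of the tables did not overlap. Each interval belongs to 1 table per group, and whether it holds the spread between pools is not known. Intervals that do not overlap are therefore no test of a difference between the groups. Exon I RNA (NM_007540) was at 0.40 and 0.412 FPKM, with deposited intervals of 0.312 to 0.488 and 0.326 to 0.497, which overlap almost whole.

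The 3 nested forms of exon II share a start and differ in where the exon ends. The longest form (NM_001048139, a first exon of 499 bp) was at 0.299 and 1.79 FPKM. The middle form (NM_001285416, 416 bp) was at 0.369 FPKM and under 0.001, and the shortest (NM_001285418, 204 bp) was under 0.001 in both. Summed, exon II RNA was 2.67-fold higher in the stress table (0.669 and 1.79 FPKM). Of all 11 transcripts, 7 had deposited intervals that did not overlap between the tables and 4 had intervals that did. Among the 7 are the middle exon II form and exons VII and VIII, all under 0.001 FPKM in the stress table. The same count was not made for other genes, so these numbers do not set Bdnf apart.

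On the log2((stress + 1)/(control + 1)) scale, which understates the change of low values, the differences were -1.73 for exon VI, 1.14 for exon V, 0.74 for exon II, 0.55 for exon IV and 0.01 for exon I. Among the first exons that averaged 1 FPKM or more (II, V and VI), exon V was past 2-fold upward and exon VI past 2-fold downward on this scale. Of 12857 expressed transcripts in the whole tables, 3.07% were past 2-fold upward and 2.39% downward. These shares count single transcripts, and counted so the longest exon II form (NM_001048139) was past 2-fold upward too, at 1.10. The gene as a whole was at 0.00, and the median of all 11071 expressed genes was 0.08. With 0.1 in place of 1 as the added value, exon II (1.29) and exon IV (1.06, with a mean under 1 FPKM) were past 2-fold too, exon V was at 1.53 and exon VI at -2.41.

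How well these transcripts can be told apart is limited by what they share. The last exon is 3662 bp long and is part of every Bdnf transcript, so most bases of a transcript cannot tell it from the others. Exon V adds 81 bp that no other Bdnf transcript holds, 2.16% of its length and shorter than a read of 100 nt. Exon VI adds 347 bp (8.66%), exon IV 339 bp (8.47%) and exon I 640 bp (14.9%), while the longest exon II form adds 83 bp (1.99%). Mean read coverage, as deposited, was 44.6 for the exon VI and 12.2 for the exon V transcript in the control table. In the stress table it was 8.77 and 41.6. The start of exon VI lies 1127 bp after that of exon IV, with exon V between them. Exons V and VI together were at 6.97 and 5.46 FPKM, and exons IV, V and VI together at 7.55 and 6.78 (log2 difference -0.14). With these 3 neighbours summed and an added value of 1, no Bdnf first exon was past 2-fold. Exon II, which the sum leaves as it was, has a plain ratio of 2.67, and its longest form alone was at a log2 difference of 1.10. How far the assignment of shared reads among neighbouring first exons moved with the table was not tested.

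The share of a gene's FPKM that sat on other transcripts in the stress than in the control table was 58.2% for Bdnf. Its median was 8.70% over 3211 expressed genes with 2 or more transcripts, and 7.01% of them had a shift at least as large as Bdnf. Among 346 genes with 5 or more transcripts the median was 20.7%, and 12.4% of genes reached the value of Bdnf. The most abundant transcript differed between the tables in 20.5% of genes with 2 or more transcripts and in 34.4% of genes with 5 or more. Counted by start site, 54.1% of Bdnf FPKM sat on other starts. The median was 19.9% over 24 genes with 5 or more starts, of which 2 reached the value of Bdnf, Bdnf included. The start site with the most FPKM differed between the tables in 12 of these 24 genes (50%), so a change such as that from exon VI to exon V was common among them.

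**Figure D2:**
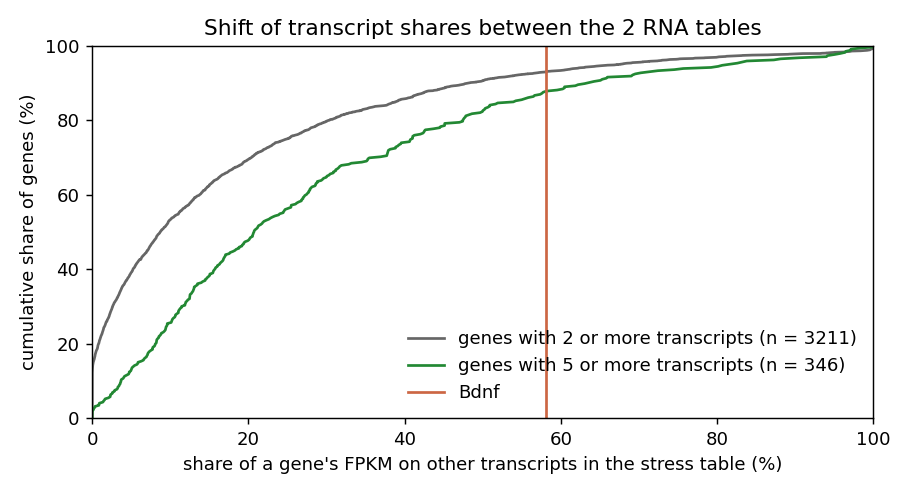
Cumulative share of genes (vertical axis, %) against the share of a gene's FPKM that sat on other transcripts in the stress table than in the control table (horizontal axis, %). The curves are genes with 2 or more (n = 3211) and 5 or more (n = 346) transcripts, and the vertical line is Bdnf at 58.2%, in the upper part of both.

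The 5hmC comparison asked where around Bdnf peaks were called after stress and in controls. Few were: stress replicate 2 had 2 peaks in the window, control replicate 2 had 2 and control replicate 3 had 1, while stress replicates 1 and 3 and control replicate 1 had none. Stress replicate 3 has the longest list of the 6 (31654 peaks) and stress replicate 1 the shortest (15195), so libraries without a peak here were not only those with few peaks. No peak in any library lay in the 50 kb upstream, in the 34962 bp that hold first exons I to VIII, or on exon IX and the shared last exon. The lowest score in every list was 50, and 5hmC below that level would not be listed.

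**Figure D3:**
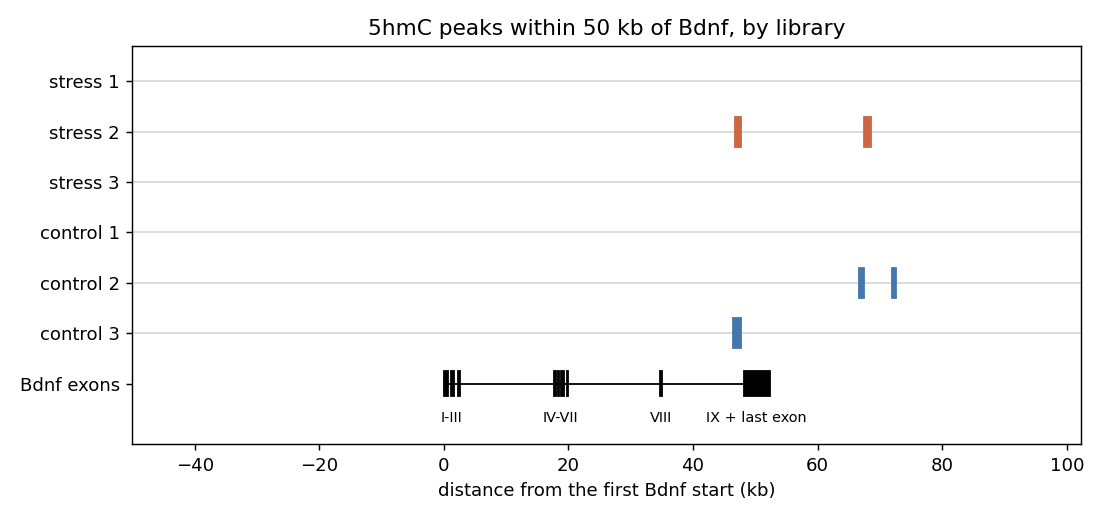
5hmC peaks (boxes, to scale) in the 6 libraries (rows) by distance from the first Bdnf start (horizontal axis, kb), above the Bdnf exons in black. Peaks lie in the intron before exon IX in stress replicate 2 and control replicate 3, and downstream of the gene in stress replicate 2 and control replicate 2.

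Within the gene, 1 region carried peaks, in the intron between exons VIII and IX. Stress replicate 2 had a peak of 973 bp there, from 109561602 to 109562574 on chromosome 2 (mm9), and control replicate 3 one of 1215 bp, from 109561333 to 109562547. They share 946 bp, which is 97.2% of the first and 77.9% of the second, and end 503 and 530 bp before the start of exon IX. Their scores, as the authors' peak caller gave them, were 55.65 and 55.49, at or above 23.8% and 28.0% of the peaks of their own lists. This region was thus found in 1 stress and 1 control library and was a weak peak in both.

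Downstream of the gene, stress replicate 2 had a peak of 1045 bp starting 15.1 kb after the gene's end (109582323 to 109583367), with a score above only a small part of its list (rank 26490 of 27797). Control replicate 2 had peaks of 677 bp (109581564 to 109582240) and 727 bp (109586753 to 109587479), starting 14.4 and 19.6 kb after the end, at ranks 5130 and 11876 of 27916. The peak of stress replicate 2 and the nearer one of control replicate 2 do not overlap. Control replicate 2 had a further peak 2.63 kb outside the window, on the upstream side. None of the 4 regions was found in all 3 libraries of a group and in no library of the other. Over the series, 1.14% of 74450 regions were found in all 3 stress and no control library, and 0.371% the reverse. The stress lists held 15195, 27797 and 31654 peaks and the control lists 17186, 27916 and 16327. With equal numbers of top-scoring peaks from each list, 531 regions were stress-only and 310 control-only, against 847 and 276 with the whole lists.

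Peaks covered 0%, 1.86% and 0% of the gene body in stress replicates 1, 2 and 3, and 0%, 0% and 2.32% in control replicates 1, 2 and 3. The means were 0.620% ± 1.07 in stress and 0.774% ± 1.34 in control libraries (SD, n = 3 each), and the groups overlapped (exact two-sided permutation p = 1). For the body with 50 kb either side, the values were 0%, 1.32% and 0% in stress and 0%, 0.922% and 0.798% in control libraries. Their means were 0.442% ± 0.765 and 0.573% ± 0.50 (SD, n = 3 each; exact two-sided permutation p = 1). The smallest p that 3 against 3 libraries allow is 0.1, so these tests could not pass 0.05. Of the 5 segments of the window only the intron before exon IX (2.45% ± 4.24 in stress, 3.05% ± 5.29 in control) and the 50 kb downstream (0.697% ± 1.21 and 0.936% ± 1.62) held peaks, each with an exact permutation p of 1, also after Benjamini-Hochberg adjustment over the segments (SD, n = 3 each). A difference in 5hmC between the groups was not detectable at Bdnf with these lists.

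The Bdnf window lay under peaks to a smaller share, and in fewer libraries, than that of most expressed genes of like length. Over 3645 expressed genes with a body within a factor of 2 of its length, body and flanks together had a peak in a median of 6 libraries, against 3 for Bdnf, and 8.40% of these genes had a peak in fewer libraries. Averaged over the 6 libraries, 0.507% of the Bdnf window lay under peaks, beside a median of 1.70% over these genes, of which 12.3% were below Bdnf. For the gene body alone the mean was 0.697% against a median of 1.75%, with 24.6% of genes below. Single libraries differed: in control replicate 3 the 2.32% of the Bdnf body was above 73.1% of these genes, and in stress replicate 1, where Bdnf was at 0, so were 53.9% of them. No test was made of this difference, and the percentages describe these 6 lists. The Bdnf flanks hold no other gene, and the like genes were not matched for genes in their flanks. What part this has in the difference was not tested.

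**Figure D4:**
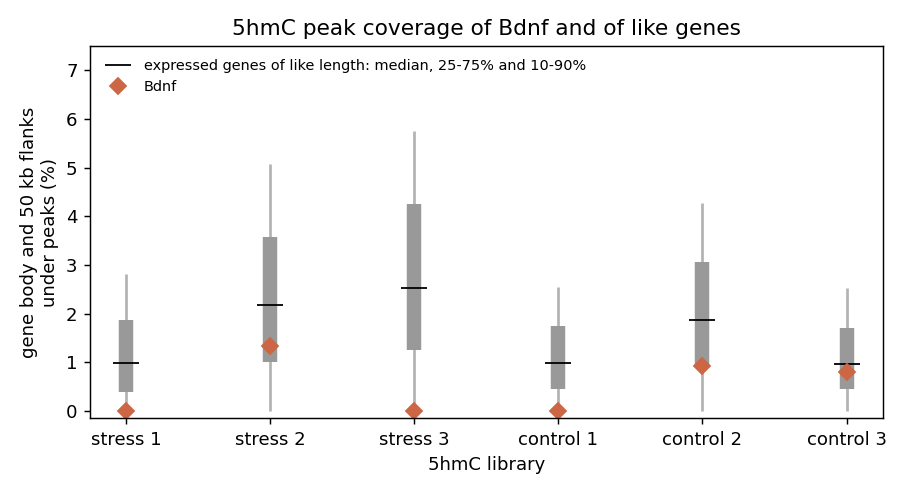
Share of gene body and 50 kb flanks under 5hmC peaks (vertical axis, %) in each of the 6 libraries (horizontal axis), for Bdnf (diamonds) and for 3645 expressed genes of like length (median as a tick, with inner and outer ranges as thick and thin bars, marked in the legend). Bdnf lies at 0 in 3 libraries and below the median of like genes in the other 3.

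The genes whose 5hmC pattern was nearest to that of Bdnf were named by the smallest summed absolute difference in covered share of body and flanks over the 6 libraries. They were Cwc22, a splicing factor (0.802 percentage points in sum), Map3k2, a kinase of the MAP kinase cascade (0.968), Hmox2, a haem oxygenase (0.993), Gpr63, a G protein-coupled receptor (1.15), and Rmnd5a, part of a ubiquitin ligase (1.17). Like Bdnf, the first 4 had no peak in stress replicates 1 and 3 and control replicate 1, and Rmnd5a had one in stress replicate 3. The likeness is over 6 libraries and is a description.

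Among the other neurotrophins, Ntf3, which encodes neurotrophin-3, was lower in the stress table. It was at 3.62 and 1.93 FPKM (log2 difference -0.66), and its main transcript (NM_001164035) at 3.62 and 1.54. Ntf5, which encodes neurotrophin-4, was at 0.0637 and 0.0438 FPKM. Neither Bdnf nor Ntf3, the expressed members, was past 2-fold as a whole gene, where 0.307% of 11071 expressed genes were past 2-fold upward and 0.289% downward. Peaks covered 2.36%, 3.92% and 2.63% of the Ntf3 body in stress replicates 1 to 3 and 2.08%, 2.21% and 0% in control replicates 1 to 3, so that the groups did not overlap. Such coverage, higher in every stress than in any control library, was found in 3.95% of all 23893 genes, and the reverse in 0.548%. The peak lists differ in length, and these shares were not corrected for it. Bdnf, Ntf3 and Ntf5 held no region found in 1 group only.

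The receptors differed little between the tables. Ntrk2 was at 36.4 and 40.5 FPKM. Its form with the kinase domain (NM_001025074) was at 16.3 and 17.1 FPKM, and the shorter form that lacks it (NM_008745) at 20.1 and 23.3. The short form thus held most of Ntrk2 RNA in both tables. Ntrk3, the receptor of neurotrophin-3, was at 19.5 and 19.7 FPKM. Sort1, a sorting receptor that binds proBDNF, was at 40.2 and 44.4, and Kidins220, a scaffold that binds Trk receptors, at 30.9 and 34.6. Slitrk5, a co-receptor of TrkB, was at 13.6 and 14.05 FPKM, and the sorting receptors Sorcs1, Sorcs2 and Sorcs3 were at 1.31 and 1.25, 3.29 and 3.25, and 3.60 and 2.95. Ngfr, the p75 receptor, was at 0.288 and 0.343 FPKM. Log2 differences of the 8 expressed receptor genes lay between -0.22 and 0.16, with a median of 0.03.

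Unlike Bdnf, Ntrk2 had a peak in its body in all 6 libraries. Peaks covered 0.578%, 4.25% and 4.88% of it in stress replicates 1, 2 and 3 and 0.545%, 2.44% and 1.50% in control replicates 1, 2 and 3. The ranges overlap, and the means of 3.24% ± 2.33 and 1.50% ± 0.947 (SD, n = 3 each) did not differ beyond the spread between libraries (exact two-sided permutation p = 0.3). Ntrk2 spans 327 kb and Bdnf 52.3 kb, and the part of gene length in this contrast was not tested. None of the receptor genes named here held a region found in 1 group only.

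Genes that process and release neurotrophins were on balance slightly higher in the stress table. Of 14 expressed members, 11 exceeded the median of all genes and none was past 2-fold. Their median log2 difference was 0.15, beside 0.08 for all expressed genes. The highest were Pcsk5, a proprotein convertase (1.83 and 2.61 FPKM), Plat, tissue plasminogen activator, which leads to the cleavage of proBDNF (5.17 and 6.62), and Chgb, a granin of dense-core vesicles (189 and 227). The lowest were the convertases Pcsk7 (1.47 and 1.30) and Pcsk2 (27.4 and 26.9) and the inhibitor Serpini1 (27.8 and 26.3). Plg and Mmp7, which encode proteases that cleave proBDNF, were listed at 0 in both tables. Hap1, which takes part in the sorting of BDNF into vesicles, held 1 region found in all 3 stress and no control library.

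Of 39 expressed factors known to act on Bdnf transcription, 2 were past 2-fold upward and none was 2-fold lower. Over all 11071 expressed genes, 0.307% were past 2-fold upward and 0.289% downward. The 2 factors were Fos (an AP-1 subunit, 0.60 and 3.34 FPKM) and Gadd45b (a DNA demethylation factor, 0.978 and 3.36). The next was Egr1, an immediate early transcription factor (16.8 and 27.7). The lowest were Nr3c1, the glucocorticoid receptor (8.58 and 7.17), Atf1, a CREB relative (2.60 and 2.28), and Mef2c, an activity-regulated factor (19.4 and 17.9). The list median of 0.11 was near the 0.08 of all genes, and 22 members lay above that value and 17 below. Creb1, Crebbp, Dnmt3a and Hdac4 held stress-only regions and Bhlhe41, a transcriptional repressor, a control-only region.

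Genes of TrkB signalling lay around the median of all genes. Of 49 expressed members, 26 were above and 23 below it, none was past 2-fold, and the median was 0.09. The highest were Prkcd, a protein kinase C (5.62 and 8.74 FPKM), Shc3, an adaptor of Trk receptors (6.75 and 10.0), and Map2k2, a MAP kinase kinase (7.27 and 10.2). Prkcd is also a marker of thalamus. The markers of thalamus and neighbouring tissue, Prkcd among them, summed to 36.1 and 46.4 FPKM, with 6 of 8 above the median of all genes, and their part in the level of Prkcd was not tested. The lowest were the adaptors Gab1 (4.67 and 3.69) and Frs3 (2.40 and 2.06) and Spry2, an inhibitor of receptor kinase signalling (3.68 and 3.55). Akt2, Itpr1, Prkca, Rps6ka5 and Sos1 held stress-only regions and Rap1a a control-only region.

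Genes known to answer BDNF, most of which also answer neuronal activity in general, had the highest median of these lists, 0.29. Of 23 expressed members, 17 exceeded the median of all genes. Past 2-fold upward were 2 (Fos and Gadd45b, counted above), beside 0.307% of all expressed genes, and none was 2-fold lower, beside 0.289%. Arc, a synaptic plasticity gene, came next at 10.4 and 21.4 FPKM (log2 difference 0.98). The lowest were Tac1, a neuropeptide precursor (3.20 and 2.20), Nptx2, a pentraxin of synapses (2.01 and 1.31), and Sst, somatostatin (39.9 and 38.0). No gene of this list held a region found in 1 group only.

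**Figure D5:**
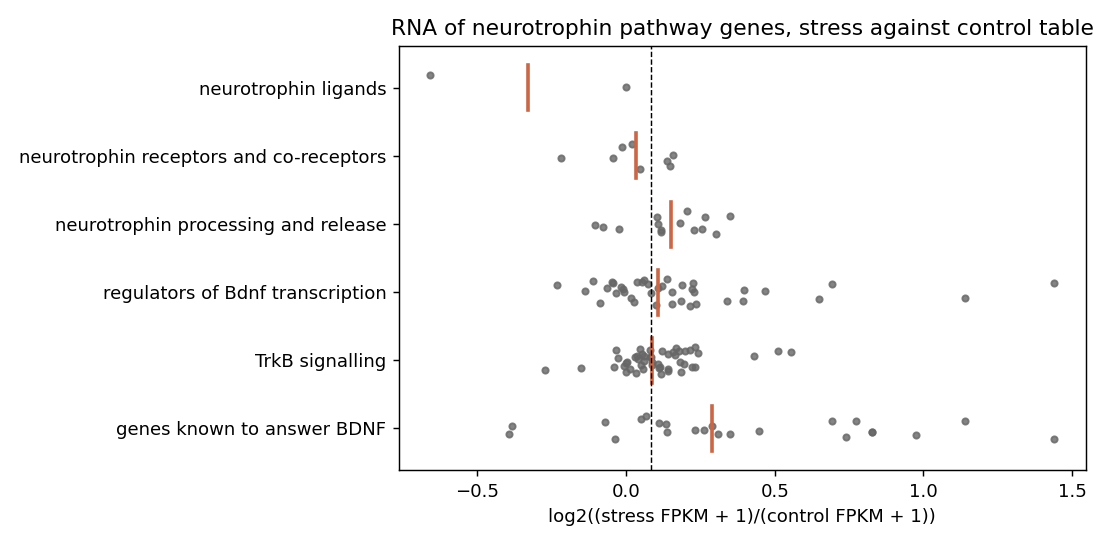
Log2((stress FPKM + 1)/(control FPKM + 1)) of expressed genes (points, horizontal axis) in 6 neurotrophin lists (rows; a gene can be in several), with list medians as bars and the median of all genes (0.08) as a dashed line; vertical scatter within a row is only for display. The points to the far right are Fos at 1.44 and Gadd45b at 1.14, each in both rows that hold them.

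Over all 6 lists together, 10 of 152 genes (6.58%) held a stress-only region and 2 (1.32%) a control-only region, against 2.44% and 0.653% of all genes. The listed genes are longer, with a median body of 35.6 kb against 14.3 kb for all genes. Neither the difference in these shares nor the part of gene length in it was tested. With equal numbers of top-scoring peaks from each list, 5 and 2 of the genes held such regions. When single libraries were left out, which eases the rule for the remaining ones, the number with a region in either direction went from 12 to between 16 (without control replicate 1) and 33 (without stress replicate 1).

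Markers of the cells of the hippocampus and of neighbouring tissue were compared between the tables. Excitatory neuron markers, among them Slc17a7 and Camk2a, summed to 893 and 987 FPKM, and their median log2 difference was 0.08, close to that of all genes. Dentate granule cell markers summed to 108 and 124, with 7 of 8 above the median of all genes, and CA1 markers to 52.4 and 49.5, with all 6 below it. The labelled tissue thus showed its neuronal markers in both tables. The 7 expressed markers of choroid plexus were all lower in the stress table. Of these, 5 were past 2-fold downward, beside 0.289% of all expressed genes. The list of 10 summed to 316 and 101 FPKM. Whether the makeup of the tissue differed, and whether this has a part in the shift between Bdnf first exons, was not tested. In tissue RNA, fewer cells of a type and less RNA per cell cannot be told apart.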

How the data were processed

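5hmC was captured from 10 µg of pooled DNA sheared to 300 bp and read as 50 nt single reads; RNA was read as 100 nt paired reads. For 5hmC the authors deposited 1 list of peaks per library with a score per peak. Peak names are those of MACS, and the submitters' processing notes name the mm9 build, Bowtie 0.12.9 and edgeR. The version and any input library are not given in the sources used here. For RNA these notes name TopHat 1.0.12, Cufflinks 2.1.1 and Cuffdiff 2.1.1, and the tables deposited by the authors give FPKM, an interval and coverage per transcript. The sources used here do not say how the 3 libraries of a group were combined.

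Lists held 15195 to 31654 peaks on chromosomes 1 to 19, X and Y. Peaks sharing 1 bp or more formed a region, and coverage is the percentage of bases under peaks. Gene models are those of the RNA tables. First exons were grouped by transcript start. Exon IX was joined to the last exon as 1 segment. Groups of libraries were compared with exact permutation tests over 20 assignments. A p-value is the share of assignments whose difference of means was at least as large as that seen. The units are libraries of pooled mice, whose lists also differ in length. The tests were run in Python 3.11.15 with numpy 2.4.6. The permutation test was checked on short made-up lists, and the region and transcript-share steps on values planted in the data. Replicate numbers were not used as pairs in the main tests. Deviations of same-numbered libraries correlated at 0.03, 0.03 and 0.00, and those of other-numbered libraries at -0.05 to 0.03. Whether same-numbered libraries shared a batch was not tested.

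Bdnf, the gene lists and the tests were chosen with earlier results of these data known. Named are every Bdnf transcript, ligands and receptors (some members are not reported here), the 3 highest and lowest genes of each other list, genes with a region in 1 group only and the 5 genes most like Bdnf in 5hmC. Markers of 13 cell types or tissues were summed; those not described in the report had medians of 0.13 (CA3), 0.07 (inhibitory neurons), 0.17 (astrocytes), -0.22 (oligodendrocytes), 0.22 (microglia), 0.00 (endothelium and mural cells), -0.57 (ependyma) and 0.14 (neocortex layers). Alternatives were other peak cutoffs, flanks, overlap rules, pseudocounts, centring, the most abundant transcript, each library left out and replicate numbers as blocks; the sum of exons IV, V and VI was added after seeing the data.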

Additional observations from a re-analysis of the deposited data

How the results depend on the processing

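The difference in Bdnf 5hmC coverage (stress minus control) rests on single libraries and has no stable direction. For body and flanks it was -0.13 percentage points, and from -0.573 to 0.0893 with each library left out, with the sign turned without stress replicate 1 or 3 (0.0893) or control replicate 2 (0.0428). For the gene body it was -0.15, from -0.774 to 0.620 with each library left out, turned without stress replicate 1 or 3 (0.156) or control replicate 3 (0.620), and 0 with the higher-scoring 50% of each list. For the intron before exon IX the range was -3.05 to 2.45, turned without stress replicate 1 or 3 (0.615) or control replicate 3 (2.45). For the 50 kb downstream it was -0.936 to 0.697, turned without stress replicate 1 or 3 (0.109) or control replicate 2 (0.697). With equal numbers of top-scoring peaks from each list, both peaks of stress replicate 2 were lost and the difference was -0.573 for body and flanks. With replicate numbers as a block the differences stayed at -0.13 and -0.15 (exact sign-flip permutation p = 1 for each, where 3 pairs allow no p under 0.25), and no call changed. No region of the window was found in 1 group only under any alternative run.

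For RNA, the difference of the gene was -0.23 when only the most abundant transcript of each table was counted. The count of first exons past 2-fold went from 2 to 0 with exons IV, V and VI summed at a pseudocount of 1; exon II, outside that sum, was at 1.29 with a pseudocount of 0.1. With a pseudocount of 0.1, 4 pathway genes were past 2-fold (Arc and Fosb besides Fos and Gadd45b) instead of 2. Pathway genes with a region in 1 group only numbered 12, 7 with equal numbers of top-scoring peaks, and 16 to 33 with a library left out. The cause of these shifts was not tested, except that a library left out eases the rule for the others.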
